A study of Mus musculus with 12 samples.

Results

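The acyl-CoA thioesterases of the Acot family were followed in mouse liver across genotype and feeding state. They were taken as the probe sets whose platform gene symbol is Acot1, Acot2, Acot3, Acot4, Acot5, Acot7, Acot8, Acot12 or Acot13. All 9 genes were measured, out of 18194 genes on the array, through 13 probe sets listed for 1 of these genes and 1 further probe set listed for both Acot1 and Acot2. Each gene is given by its brightest probe set unless stated otherwise.

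The 12 Affymetrix arrays carried liver RNA of mice of the SV129XC57Bl/6 background. Mice were either control or LG2KO with tamoxifen, read here as loss of the liver glucose transporter Glut2, the product of Slc2a2, and were fasted, or fasted and then refed. Each combination of genotype and feeding, 4 in all, held 3 arrays, and each array held RNA pooled from 3 animals, so n = 3 pools per group throughout. The control labels name no tamoxifen, so the drug and the deletion cannot be told apart, and the labels used here give no age, sex, length of fasting or refeeding, or driver of the deletion. The LG2KO fasted arrays are called fasted by their titles and diet labels but refed by their source description, and the former were used. In pooled whole liver, fewer cells of a type and less RNA per cell cannot be told apart.

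Slc2a2 served as the check of the genotype labels and does not check the feeding labels. Its log2 means in the deposited values were 10.64 and 10.96 in fasted and refed controls and 3.90 and 3.74 in LG2KO livers. Arrays of a group correlated at 0.984 to 0.996. In a principal component analysis, control refed replicate 1 and LG2KO fasted replicate 3 stood apart from the other arrays (37.1 and -31.4 on the second component, against -11.4 to 7.46). On the first component (40.2% of the variance) these arrays lay at -1.52 and -5.31. The other refed arrays were at 16.3 to 23.1 there and the other fasted arrays at -25.0 to -14.0. The summed signal of 6 hepatocyte markers lay between 16.21 and 16.38 (log2) on all arrays. It was 16.21 to 16.24 in LG2KO refed and 16.27 to 16.38 in control refed livers.

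Acyl-CoA thioesterases cleave an acyl-CoA into the free acid and coenzyme A, the reverse of what acyl-CoA synthetases do. Different members work in the cytosol, in mitochondria and in peroxisomes, and they differ in the chain length they prefer. Several are targets of PPARalpha, the nuclear receptor that turns on fat oxidation genes in the fasted liver, and rise with fasting. Acot2, Acot1, Acot4, Acot3, Acot5 and Acot6 lie next to each other in this order on mouse chromosome 12 and encode closely related proteins, so probes of one can pick up another.

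Of the 9 genes, 3 were lower in refed than in fasted control livers: Acot3, Acot12 and Acot1. Acot3 and Acot12 were also lower after refeeding in LG2KO livers. Acot1 was lower in LG2KO than in control livers when the feeding states were averaged. No gene of the family was higher after refeeding, and none passed the test of LG2KO against control within either feeding state or the test of whether the refeeding difference depended on genotype. Passing means an adjusted p below 0.05 in a limma fit of all 18194 genes. In the comparison of refed with fasted livers 6.46% of all genes passed in controls and 7.05% in LG2KO, against 3 of 9 and 2 of 9 members, counts that rest on few genes.

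**Figure D1:**
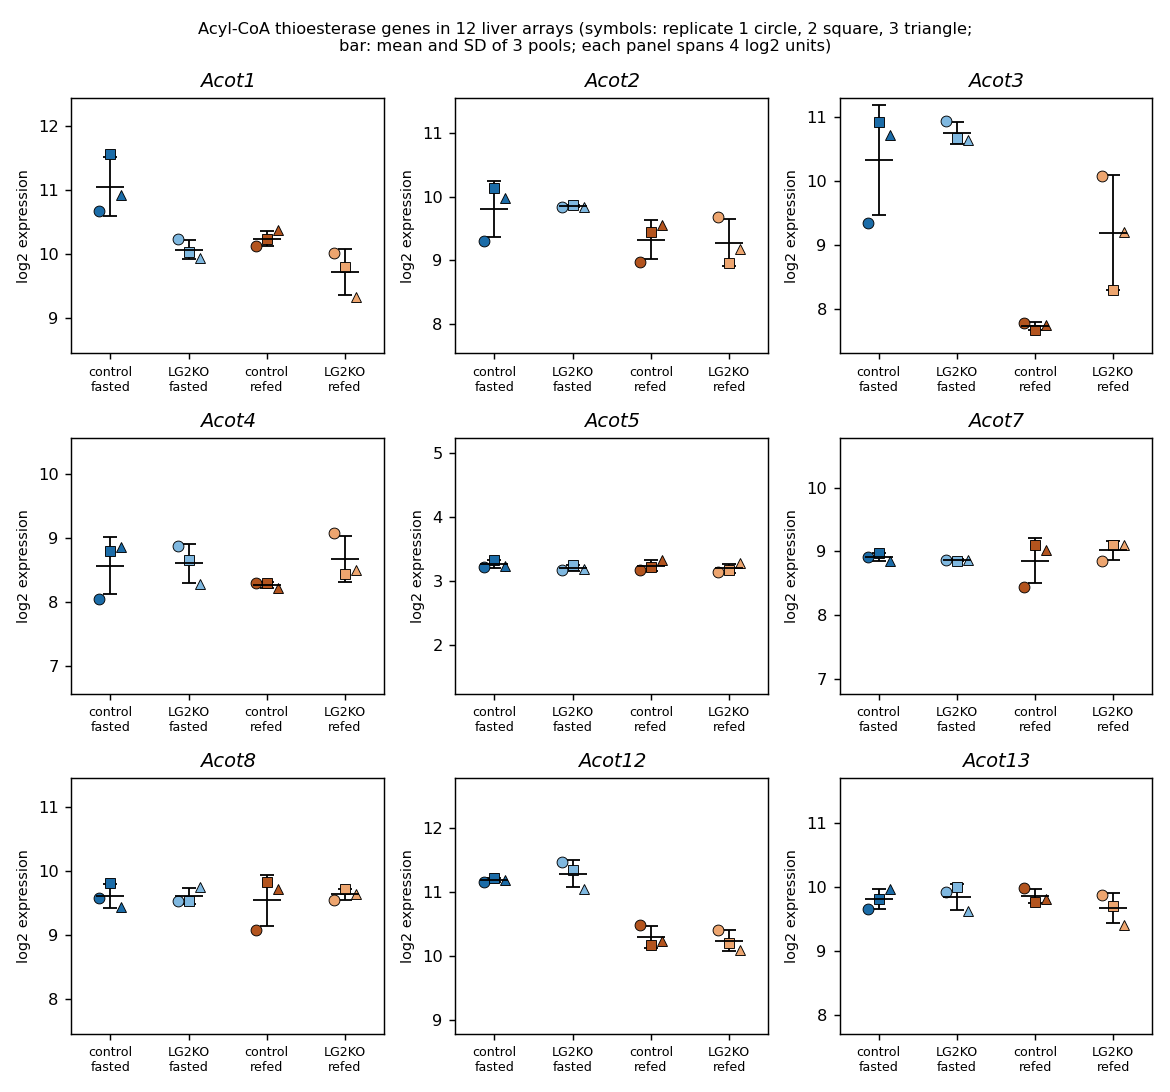
Log2 expression of the 9 Acot genes by group. Each symbol is 1 array (a pool of 3 animals), bars are the mean and SD of 3 pools, and every panel spans 4 log2 units. Acot3 ranges from 7.66 to 10.95 over the arrays and Acot5 from 3.14 to 3.33.

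Acot3, a peroxisomal thioesterase of long-chain acyl-CoAs, had the widest range of the family, with 3.02 between its lowest and highest group means. In control fasted livers its log2 values were 9.34, 10.92 and 10.73 in replicates 1 to 3, and in control refed livers 7.79, 7.66 and 7.75. In LG2KO livers they were 10.95, 10.68 and 10.64 in the fasted state and 10.09, 8.29 and 9.20 after refeeding. All refed arrays thus lay below all fasted arrays of the same genotype. The control refed values were close to each other (SD 0.06), while the LG2KO refed values were far from each other (SD 0.90).

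Refeeding lowered Acot3 by a log2 difference of -2.60 ± 0.42 (SE) in controls, a 6.05-fold fall (limma, adjusted p = 0.00248). In LG2KO the difference was -1.56 ± 0.42, a 2.95-fold fall (adjusted p = 0.0426). The control call held in all 22 alternative settings, between -3.09 and -2.30 with 1 array left out. The LG2KO call was lost in 14 of 22. It was lost without LG2KO refed replicate 2 (-1.11, adjusted p = 0.166) or 3 (0.123), without LG2KO fasted replicate 1 (0.137), 2 (0.108) or 3 (0.0614), without control refed replicate 2 (0.0612) or 3 (0.058) and without control fasted replicate 3 (0.0534). Without LG2KO refed replicate 1 the difference was -2.01 (adjusted p = 0.0129). The probe set of Acot3 carries the suffix that Affymetrix gives to sets whose probes match several related transcripts, so its signal may hold that of a neighbour.

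After refeeding, the 3 LG2KO arrays lay above the 3 control arrays for Acot3, with a log2 difference of 1.46 ± 0.42 and a 95% interval of 0.55 to 2.37. Over all genes this did not pass (adjusted p = 0.228). It was 1.01 without LG2KO refed replicate 1 and 1.91 without replicate 2, and it did not pass in any of the 22 alternatives. In the fasted state the groups overlapped, at 0.43 ± 0.42 (adjusted p = 0.9999). The refeeding fall differed between genotypes by 1.04 ± 0.59, interval -0.25 to 2.33, which did not pass either (adjusted p = 0.99).

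Acot12, a cytosolic enzyme of the liver that hydrolyses acetyl-CoA, responded to feeding with little spread. Control fasted livers were at 11.16, 11.21 and 11.19 and control refed livers at 10.49, 10.16 and 10.23. LG2KO livers were at 11.47, 11.34 and 11.05 in the fasted state and at 10.41, 10.20 and 10.09 after refeeding. The fasted and refed arrays did not overlap in either genotype, and the genotypes overlapped in both feeding states.

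The refeeding difference of Acot12 was -0.89 ± 0.12 in controls (1.86-fold lower, limma adjusted p = 0.000709) and -1.05 ± 0.12 in LG2KO (2.08-fold lower, adjusted p = 0.000258). These ranked 184th and 87th by p among all genes. The genotype difference was 0.10 ± 0.12 in fasted livers, interval -0.16 to 0.36, and -0.06 ± 0.12 in refed livers, interval -0.32 to 0.20. The difference in refeeding response between genotypes was -0.16 ± 0.17, interval -0.53 to 0.21. A second, dimmer Acot12 probe set, tested among all 45101 probe sets, gave -0.71 ± 0.33 in controls (adjusted p = 0.388) and -1.24 ± 0.33 in LG2KO (adjusted p = 0.0589). The third lay near 3.4 in every group. When the 3 sets were averaged, the control difference was -0.52 and did not pass (adjusted p = 0.0559).

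Acot1, the cytosolic long-chain thioesterase that fasting is known to induce, differed by feeding and by genotype. Its values were 10.67, 11.56 and 10.93 in control fasted livers and 10.23, 10.03 and 9.94 in LG2KO fasted livers. After refeeding they were 10.12, 10.23 and 10.37 in controls and 10.02, 9.80 and 9.32 in LG2KO. The order of the group means was control fasted, control refed, LG2KO fasted and LG2KO refed, at 11.05 ± 0.46, 10.24 ± 0.12, 10.07 ± 0.15 and 9.71 ± 0.36 (SD). LG2KO arrays lay below control arrays within each feeding state, whereas the arrays of control refed and LG2KO fasted overlapped, as did those of LG2KO fasted and LG2KO refed.

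Averaged over the feeding states, Acot1 was lower in LG2KO by a log2 difference of -0.76 ± 0.15, or 1.69-fold (limma, adjusted p = 0.0345), where 1.02% of all genes passed and Acot1 was the 1 of 9 members to do so. The call was lost in 12 of 21 alternatives, with adjusted p-values from 0.00976 to 0.0946. Leaving out 1 array gave -0.85 to -0.63, and the call was kept without control refed replicate 1, LG2KO refed replicate 1 or control fasted replicate 1 and lost without each of the other arrays, among them control fasted replicate 2 (-0.63, adjusted p = 0.0533) and LG2KO fasted replicate 2 (-0.75, 0.0946). Without the arrays that stood apart it was -0.76 (adjusted p = 0.0587). Within the feeding states the differences were -0.99 ± 0.21 in fasted livers (adjusted p = 0.0955) and -0.53 ± 0.21 in refed livers (adjusted p = 0.459), and neither passed. They differed from each other by 0.46 ± 0.30, interval -0.19 to 1.11 (adjusted p = 0.99).

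Refeeding lowered Acot1 in controls by -0.81 ± 0.21, or 1.76-fold (limma, adjusted p = 0.0386). This call was lost in 12 of 22 alternatives. It was lost without control fasted replicate 2 (-0.56, adjusted p = 0.137) or 3 (0.0758), without control refed replicate 1 (0.0838), 2 (0.113) or 3 (0.0729), without LG2KO refed replicate 2 (0.0567) or LG2KO fasted replicate 2 (0.057), and without the arrays that stood apart (0.0638). In LG2KO the refeeding difference was -0.36 ± 0.21 with an interval of -0.82 to 0.10 (adjusted p = 0.451). The control fasted arrays enter both this refeeding difference and the fasted genotype difference, so the Acot1 values are not independent of each other.

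Acot2 makes the mitochondrial relative of Acot1. Its values were 9.30, 10.13 and 9.98 in control fasted and 9.84, 9.86 and 9.84 in LG2KO fasted livers, and 8.98, 9.44 and 9.55 in control refed and 9.68, 8.96 and 9.18 in LG2KO refed livers. Fasted and refed arrays overlapped in controls and did not in LG2KO. The refeeding differences, -0.48 ± 0.23 in controls (adjusted p = 0.312) and -0.57 ± 0.23 in LG2KO (adjusted p = 0.181), did not pass in limma. The genotype differences were 0.04 ± 0.23 in fasted and -0.05 ± 0.23 in refed livers.

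The probe set listed for both Acot1 and Acot2 was assigned to neither gene. Its group means were 10.88 in control fasted, 9.67 in LG2KO fasted, 10.01 in control refed and 9.40 in LG2KO refed livers. In a limma fit of all 45101 probe sets its genotype difference was -1.21 ± 0.23 in fasted livers (adjusted p = 0.0703) and -0.60 ± 0.23 in refed livers (adjusted p = 0.545). Each array's value was set against the probe set's own mean, and profiles were compared by the root mean square distance over the 12 arrays. By this measure the shared probe set lay 0.11 from Acot1 and 0.53 and 0.48 from the brighter and dimmer Acot2 probe sets, which lay 0.13 from each other. Averaged over feeding, the shared set was lower in LG2KO by a difference of -0.91 ± 0.16 (adjusted p = 0.028). The dimmer Acot2 set gave genotype differences of -0.18 ± 0.21 and -0.06 ± 0.21 in fasted and refed livers, and neither passed.

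**Figure D2:**
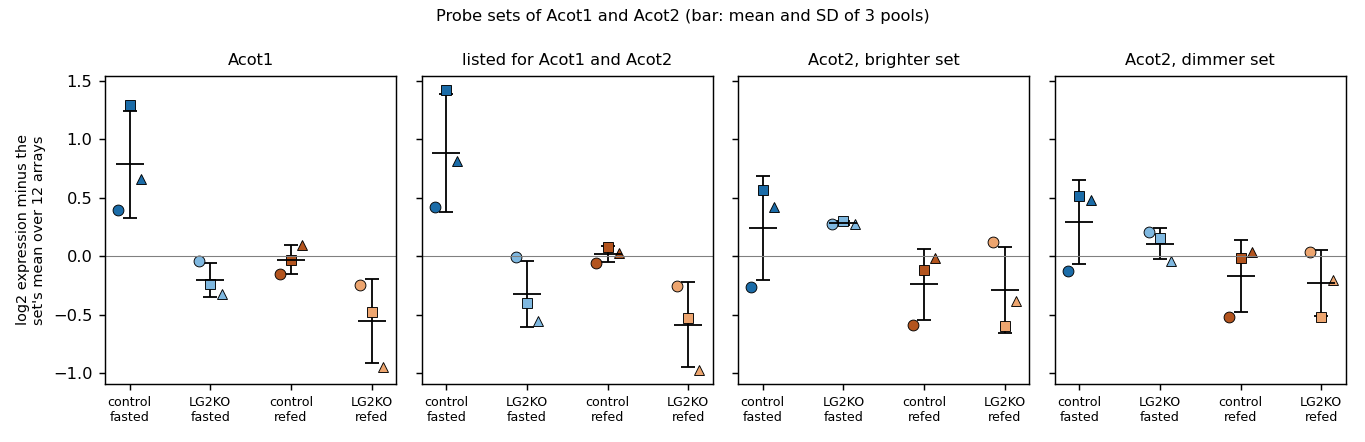
Log2 expression of 4 probe sets of Acot1 and Acot2 minus each set's mean over the 12 arrays, by group; symbols are arrays (replicate 1 circle, 2 square, 3 triangle) and bars the mean and SD of 3 pools. The Acot1 set and the set listed for both genes are lower in LG2KO at each feeding state, and the Acot2 sets overlap between genotypes.

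The windows upstream of these genes are printed from RefSeq (mouse GRCm38.p6) because the 3 genes that passed a test, and the neighbours of Acot1 and Acot3 that did not, can be set side by side there. Of the 9 genes 8 had a promoter entry. The 250 bases before the start were searched on both strands for AGGTCA, the hexamer bound by many nuclear receptors, PPARalpha among them, for the direct repeat of this hexamer with 1 base between (the ideal PPARalpha element), and for CACGTG, the core of the E-box that ChREBP and other helix-loop-helix factors bind. Capitals mark a match, which can read as its reverse complement TGACCT. Shown are the 3 genes that passed and Acot4, the neighbour that held both motifs.
Acot1, chr12:84009252-84009501, + strand: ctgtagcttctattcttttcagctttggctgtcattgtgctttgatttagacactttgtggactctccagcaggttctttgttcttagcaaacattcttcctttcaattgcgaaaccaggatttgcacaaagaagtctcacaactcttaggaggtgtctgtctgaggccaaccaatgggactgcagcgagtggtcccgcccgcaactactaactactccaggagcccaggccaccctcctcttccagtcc
Acot3, chr12:84051894-84052143, + strand: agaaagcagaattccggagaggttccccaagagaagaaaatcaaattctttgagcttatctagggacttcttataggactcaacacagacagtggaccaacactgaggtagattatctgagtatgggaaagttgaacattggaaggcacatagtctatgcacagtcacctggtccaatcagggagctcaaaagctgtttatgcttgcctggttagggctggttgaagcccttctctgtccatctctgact
Acot4, chr12:84038129-84038378, + strand: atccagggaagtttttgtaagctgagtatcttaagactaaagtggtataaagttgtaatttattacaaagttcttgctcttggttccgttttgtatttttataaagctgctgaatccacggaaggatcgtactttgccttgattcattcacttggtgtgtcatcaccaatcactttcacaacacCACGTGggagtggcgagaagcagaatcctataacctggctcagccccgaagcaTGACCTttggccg
Acot12, chr13:91741271-91741520, + strand: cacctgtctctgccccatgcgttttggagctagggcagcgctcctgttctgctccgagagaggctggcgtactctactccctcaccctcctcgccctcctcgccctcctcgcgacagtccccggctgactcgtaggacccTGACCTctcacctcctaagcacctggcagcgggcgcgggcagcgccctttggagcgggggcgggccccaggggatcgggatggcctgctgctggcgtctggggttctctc

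The hexamer was present in the windows of Acot4, Acot5 and Acot12, 3 of 8, against 14% of 32851 mouse promoter windows of the same length. Its match began 110 bases before the start in Acot12 and 13 bases before it in Acot4. The direct repeat was in none of the 8 and in 0.0335% of all windows. CACGTG was in the window of Acot4, 1 of 8, against 6.02% of all, 66 bases before the start. Neither Acot1 nor Acot3 held any of these letters in this window, and nor did Acot2, a neighbour not shown. Acot5, also not shown, held the hexamer 224 bases before the start. Acot4 was picked for display by its motifs, so it does not stand for the other neighbours.

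Acot4, a peroxisomal enzyme for succinyl-CoA and other acyl-CoAs, did not pass in any comparison. Its values were 8.05, 8.80 and 8.86 in control fasted, 8.88, 8.66 and 8.28 in LG2KO fasted, 8.29, 8.29 and 8.21 in control refed, and 9.08, 8.43 and 8.49 in LG2KO refed livers. The LG2KO refed arrays lay above the control refed arrays, by 0.40 ± 0.23 (interval -0.10 to 0.90, limma adjusted p = 0.66), and the other groups overlapped. Refeeding gave -0.30 ± 0.23 in controls and 0.06 ± 0.23 in LG2KO. A dimmer Acot4 probe set gave -0.55 ± 0.25 and -0.50 ± 0.25 (adjusted p = 0.368 and 0.435 among all probe sets), so the sets differed in sign in LG2KO. For LG2KO against control after refeeding the dimmer set gave 0.24 ± 0.25. Its arrays overlapped there, at 7.13, 6.65 and 6.67 in controls and 7.60, 6.76 and 6.81 in LG2KO.

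Acot5, another peroxisomal gene of the chromosome 12 cluster, was at 3.14 to 3.33 on every array. All its differences between groups were within 0.06. Background is not known on these arrays, and such a level may be background.

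The remaining members showed no difference beyond the spread of the pools. Acot8, a peroxisomal thioesterase of broad range, was at 9.44 to 9.81 in control fasted, 9.53 to 9.76 in LG2KO fasted, 9.08 to 9.82 in control refed and 9.55 to 9.72 in LG2KO refed livers. Acot7, a cytosolic long-chain enzyme best known from brain, was at 8.85 to 8.97, 8.85 to 8.87, 8.45 to 9.10 and 8.85 to 9.10 in the same order. For both genes the lowest value of all arrays was that of control refed replicate 1, an array that stood apart. Acot13, a small mitochondria-associated thioesterase that binds the phosphatidylcholine transfer protein, was at 9.66 to 9.97, 9.62 to 9.99, 9.77 to 9.99 and 9.41 to 9.88.

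For these 3 genes the 95% intervals of the refed genotype difference were -0.28 to 0.46 (Acot8), -0.16 to 0.48 (Acot7) and -0.49 to 0.11 (Acot13). Those of the refeeding difference in controls were -0.44 to 0.30, -0.38 to 0.27 and -0.25 to 0.35. With 3 pools per group, true differences within these bounds remain compatible with the values. The smallest difference that could be detected was not estimated.

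**Figure D3:**
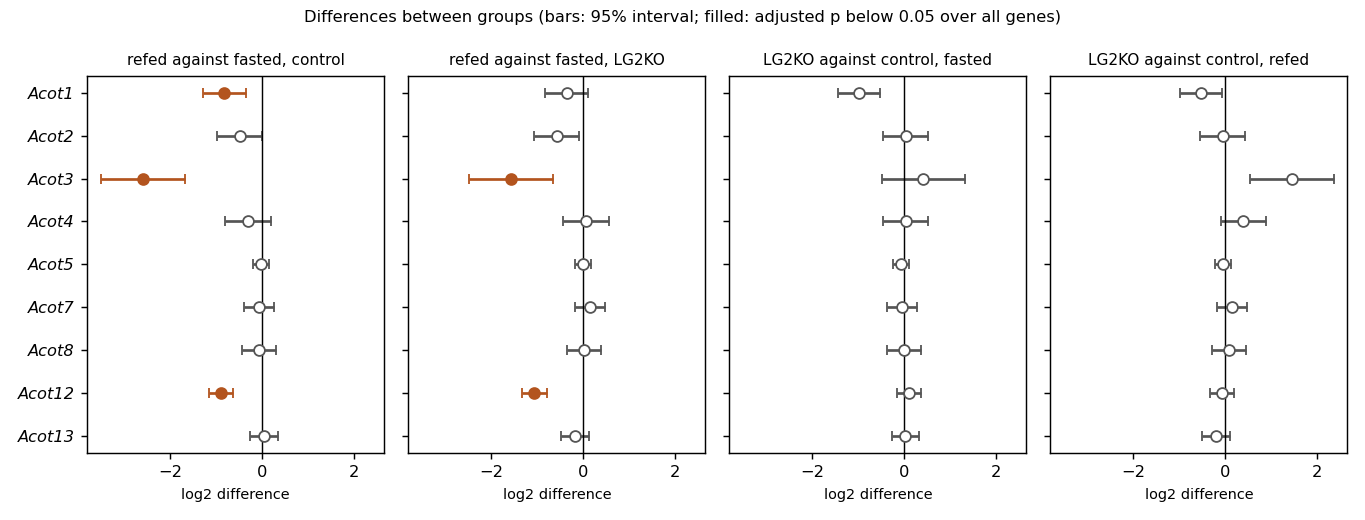
Log2 differences of the 9 genes in the 4 comparisons between groups, with 95% intervals from limma; filled points have an adjusted p below 0.05 over all genes. The filled points are Acot1, Acot3 and Acot12 for refeeding in controls and Acot3 and Acot12 for refeeding in LG2KO, all below 0.

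Over the family, refeeding gave 8 negative and 1 positive difference in controls, with a median of -0.30 against -0.01 over all genes. In controls the differences of Acot5 (-0.02 ± 0.08), Acot7 (-0.05 ± 0.15), Acot8 (-0.07 ± 0.17) and Acot13 (0.05 ± 0.14) were smaller in size than their standard errors. LG2KO gave 6 negative and 3 positive differences, with a median of -0.18 against 0.01 over all genes. The fasted and refed arrays did not overlap for 3 of 9 genes in each genotype (Acot1, Acot3 and Acot12 in controls; Acot2, Acot3 and Acot12 in LG2KO), where 20.5% and 22.5% of all genes did not overlap.

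The genotype comparisons gave 0 of 9 in limma in refed livers and 0 of 9 in fasted livers, where 0.379% and 0.396% of all genes passed. At an unadjusted p below 0.05 there were 2 genes in refed livers, Acot3 and Acot1, and 1 in fasted livers, Acot1, against 1661 and 946 of all 18194 genes. The arrays did not overlap for 3 of 9 genes in refed livers (Acot1, Acot3 and Acot4, against 15.4% of all genes) and for 1 of 9, Acot1, in fasted livers (against 10.8%). The medians were -0.04 and 0.03. The test of a dependence of refeeding on genotype gave 0 of 9, where 0.0055% of all genes, a count of 1, passed. At an unadjusted p below 0.05 it gave 0 of 9 and 861 of all genes.

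Summed marker signals of other cell types also differed between feeding groups in places. In controls the sum of 5 endothelial markers was 10.39 to 10.47 (log2) in fasted and 10.10 to 10.22 in refed livers, and that of 4 cholangiocyte markers was 7.86 to 8.01 and 8.02 to 8.51. In LG2KO the 4 measured exocrine pancreas markers (of 7 listed) summed to 9.002 to 9.043 in fasted and 9.29 to 9.46 in refed livers, and they reached 10.79 on a control fasted array. The sums of 5 macrophage and 4 adipose markers overlapped between the fasted and refed arrays of each genotype. Single markers could still differ. In limma 1 of the 4 adipose markers passed as lower after refeeding in each genotype, and 0 passed as higher. In controls 1 of 6 hepatocyte and 1 of 5 endothelial markers also passed as lower, and 0 as higher. The part of these signals in the Acot differences was not tested.

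Within 3 of the 4 groups, 1 array held an extreme value of several members, which is given as a description. Acot1, Acot2, Acot3 and Acot4 all had their lowest control fasted value on replicate 1, at -0.39, -0.50, -0.99 and -0.52 from the group mean. On the same array 34 of 39 PPARalpha and fat oxidation genes lay below their group mean, with a median of -0.14. All 4 genes had their highest LG2KO refed value on replicate 1, at 0.31, 0.41, 0.89 and 0.41, where 9 of the 39 lay below and the median was 0.08. All 4 were lowest in LG2KO fasted livers on replicate 3, at -0.12, -0.01, -0.11 and -0.33, where 30 of the 39 lay below and the median was -0.11. In control refed livers the same 4 genes shared no extreme array. Members that lie elsewhere went both ways. Acot12 and Acot13 were also lowest on control fasted replicate 1 and LG2KO fasted replicate 3 and highest on LG2KO refed replicate 1. Acot7 and Acot8 were instead lowest on LG2KO refed replicate 1 and highest on LG2KO fasted replicate 3. In control fasted livers these 2 were lowest on replicate 3. The cluster gene Acot5 was lowest on control fasted replicate 1 as well. It was lowest in LG2KO fasted livers on replicate 1 and highest in LG2KO refed livers on replicate 3. Over all genes the median deviation was 0.008 on control fasted replicate 1, 0.003 on LG2KO refed replicate 1 and 0.035 on LG2KO fasted replicate 3. The share of all genes below their group mean was not counted. Control fasted replicate 1 and LG2KO refed replicate 1 were not among the arrays that stood apart over all genes, but LG2KO fasted replicate 3 was.

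**Figure D4:**
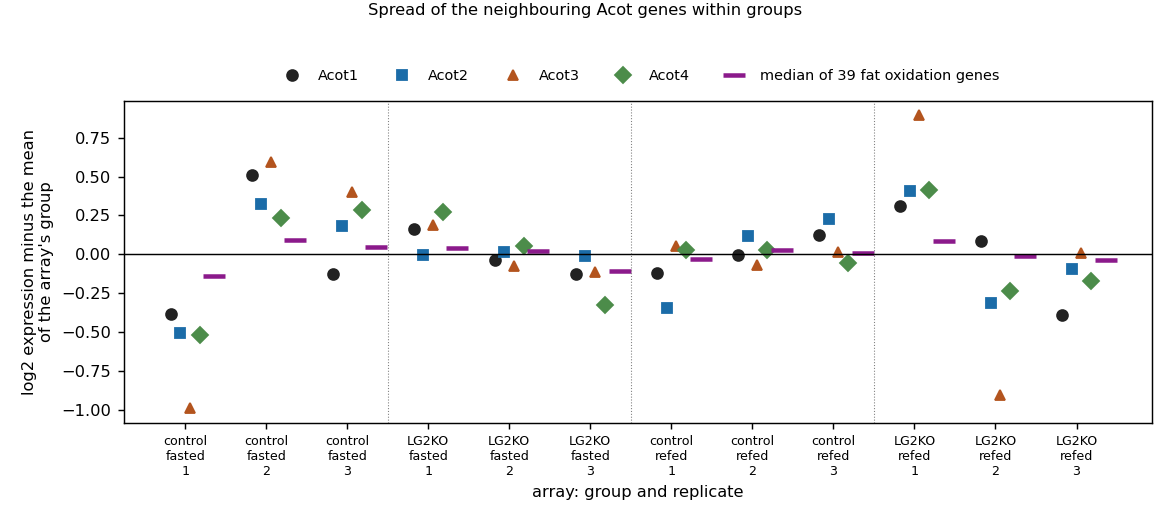
Deviation of Acot1, Acot2, Acot3 and Acot4 from the mean of each array's group, by array, with the median deviation of 39 PPARalpha and fat oxidation genes as a bar (log2). All 4 genes lie below 0 on control fasted replicate 1 and above 0 on LG2KO refed replicate 1.

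The PPARalpha and fat oxidation genes give the setting of the refeeding response. Of 39 measured, 8 were lower and 0 higher in refed controls, with a median of -0.26, and 11 were lower and 0 higher in refed LG2KO livers, with a median of -0.34. Over all genes 6.46% passed in controls and 7.05% in LG2KO, with medians of -0.01 and 0.01. The list was chosen with earlier results of these data known. Cpt1a, which lets fatty acids into mitochondria, fell by 1.30 ± 0.11 in controls and by 1.18 ± 0.11 in LG2KO. Angptl4, a secreted inhibitor of lipoprotein lipase, fell by 1.34 ± 0.20 and by 1.37 ± 0.20. Eci2, an enoyl-CoA isomerase, fell by 0.82 ± 0.09 and by 0.88 ± 0.09, and the carnitine carrier Slc25a20 fell by 0.60 ± 0.08 and by 0.58 ± 0.08. Ppara itself was at -0.14 ± 0.28 and -0.34 ± 0.28 and Pdk4, which restrains pyruvate oxidation, at -0.63 ± 0.28 and -0.42 ± 0.28, none of which passed (adjusted p = 0.907, 0.648, 0.287 and 0.532). The Acot3 difference in controls was larger in size than that of any gene on this list, while that of Acot12 lay between Eci2 and Cpt1a. These differences were not tested against each other.

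**Figure D5:**
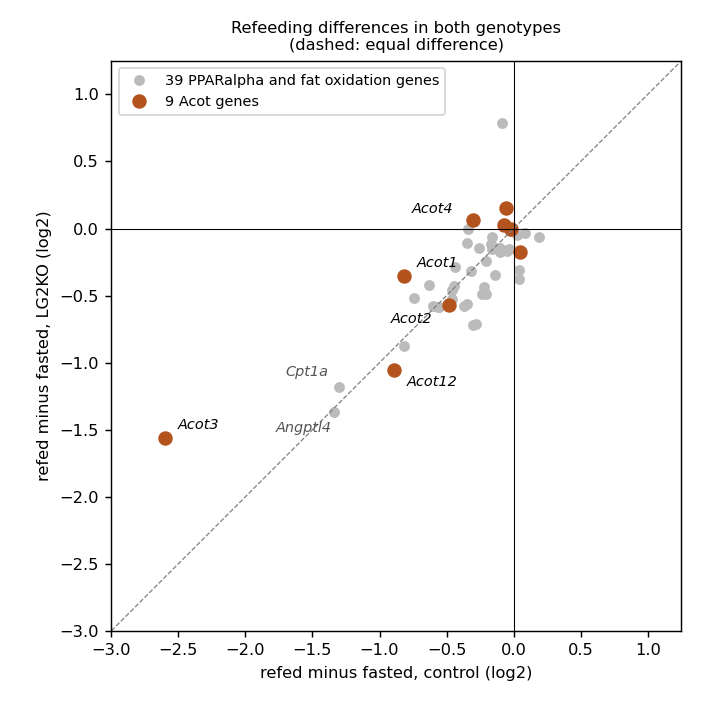
Refed minus fasted log2 difference in controls (x axis) and in LG2KO (y axis) for the 9 Acot genes and 39 PPARalpha and fat oxidation genes; the dashed line marks equal differences. Acot3 lies at -2.60 and -1.56, and Acot12 at -0.89 and -1.05 close to the line.

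By genotype, averaged over feeding, 3 of the 39 were lower and 1 higher in LG2KO, where 1.02% of all genes passed. Those lower were Ehhadh, the bifunctional enzyme of peroxisomal oxidation, at -0.77 ± 0.14 (limma, adjusted p = 0.0226), the fatty acid hydroxylase Cyp4a14 at -0.37 ± 0.06 (adjusted p = 0.018) and Acadvl, the very-long-chain acyl-CoA dehydrogenase, at -0.17 ± 0.04 (adjusted p = 0.0432). Eci3, a further enoyl-CoA isomerase, was higher, at 1.64 ± 0.26 (adjusted p = 0.0112). Its levels were 3.57 and 3.48 in fasted and refed controls and 4.77 and 5.56 in LG2KO, so the control level, like that of Acot5, may be background and the size of the difference is uncertain. Ppara was at -0.12 ± 0.20 (adjusted p = 0.94). The Acot1 difference of -0.76 ± 0.15 was close in size to that of Ehhadh.

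None of the 12 other thioesterase genes measured, which include Acot6, Acot9, Acot11 and the bile acid conjugating enzyme Baat, passed in any of the 6 limma comparisons. At an unadjusted p below 0.05 there were 0 of 12 for refeeding in controls and 1 in LG2KO, against 3038 and 3307 of all genes. For LG2KO against control there were 3 of 12 in refed livers (Abhd17a, Acot11 and Ppt2), 0 in fasted livers and 3 averaged over feeding (Acot11, Abhd17a and Them5), against 1661, 946 and 1612 of all genes. Acot11, a thioesterase of brown fat and liver, was at 0.50 ± 0.16 for LG2KO against control after refeeding (adjusted p = 0.3). Of 19 acyl-CoA synthetases, which make the substrates of the thioesterases, 1 was higher and 2 were lower in refed controls: Acsl3 at 1.12 ± 0.30, the bile acid CoA ligase Slc27a5 at -0.27 ± 0.05 and Slc27a2 at -0.26 ± 0.07. In LG2KO Slc27a4 was higher, at 0.38 ± 0.10, and Slc27a2 lower, at -0.26 ± 0.07. Over all genes 6.46% passed for refeeding in controls and 7.05% in LG2KO, so these few synthetases are given as a description.

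Of 14 genes of coenzyme A synthesis and breakdown, 2 passed for refeeding in controls and 3 in LG2KO, in both directions, and the others did not pass. Over all genes 6.46% and 7.05% passed, and these counts rest on few genes. Nudt7, a peroxisomal hydrolase that breaks down coenzyme A, was higher in refed livers of both genotypes, by 1.23 ± 0.15 in controls and by 1.20 ± 0.15 in LG2KO. Slc25a42, the mitochondrial coenzyme A carrier, was lower in refed controls at -0.58 ± 0.14. Pank1, a kinase at the first step of coenzyme A synthesis, was at -0.98 ± 0.18 in LG2KO (adjusted p = 0.00502) and at -0.52 ± 0.18 in controls (adjusted p = 0.119), and Dcakd was higher in LG2KO at 0.51 ± 0.13. Of 7 acyl-CoA binding protein genes, Dbi was higher in refed controls at 0.39 ± 0.09 and Acbd4 in refed LG2KO livers at 0.44 ± 0.10. That is 1 of 7 in each genotype, against the same shares of all genes.

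The genes whose profile over the 12 arrays was nearest to each of the 3 most variable members were found by the same root mean square distance among 18193 other genes. Nearest to Acot3 were Rab30, a small GTPase, at 0.58, the proprotein convertase Pcsk4 at 0.67, the lysophosphatidylcholine transporter Mfsd2a at 0.68 and the uridine phosphorylase Upp2 at 0.70. Mfsd2a had group means of 10.80 and 11.04 in fasted and 8.91 and 9.13 in refed control and LG2KO livers. Among members Acot12 came 67th and Acot2 203rd in nearness to Acot3, while Acot4, its direct neighbour on the chromosome, came 562nd and Acot1 2813th. Profiles were not scaled, so these ranks also reflect the size of the changes. The group means of Acot4 ranged over 0.40 and those of Acot3 over 3.02.

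Nearest to Acot12 were 4833411C07Rik at 0.08, the interleukin-6 receptor gene Il6ra at 0.13, Crybg1 at 0.13 and Tmem131 at 0.14. Il6ra had means of 8.62 and 8.61 in fasted and 7.73 and 7.58 in refed control and LG2KO livers. Nearest to Acot1 were Fbxo21 at 0.29, the autophagy gene Gabarapl1 at 0.30, the fatty acid hydroxylase Cyp4a31 at 0.31 and Grpel2 at 0.32. Cyp4a31 was at 11.38 and 10.71 in fasted and 11.03 and 10.61 in refed control and LG2KO livers. Acot2 was the nearest member to Acot1 and came 357th.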

How the data were processed

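The authors deposited log2 signals for every probe set of each array, made with RMA per the submitters' processing notes (background correction, a common distribution for all arrays, summary of probes on the log2 scale). The software and its version are not given in the sources here. RMA was not repeated. Of 45101 probe sets, 34958 had 1 symbol in the platform annotation, 932 several and 9211 were not listed. Each symbol was represented by its brightest probe set, which left 18194 genes with no filter on dim ones. Group differences were estimated by limma 3.58.1 under R 4.3.3 (lmFit, eBayes with an intensity trend, 4 group means, all 12 arrays, 8 residual degrees of freedom), two-sided, with Benjamini-Hochberg adjustment over all genes within each of 6 comparisons. Errors of differences are standard errors and errors of levels are SDs. P-values measure the spread between pools, and 3 arrays a group limit the precision. The script was tested on simulated data. The genes named are all members, Slc2a2, Ppara, Cpt1a, Pdk4, up to 4 genes that passed per context list, and the 4 nearest profiles of the 3 most variable members; Acot6, Acot9, Acot11, Baat, Abhd17a, Ppt2, Them5 and Pank1 in controls were added after their values were seen. Members and lists were chosen with earlier results of these data known. Alternatives were other moderation, array weights, dim gene filter, gene summary, scaling, arrays in the fit, and a replicate block. Figures were drawn with matplotlib 3.10.9.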

Additional observations from a re-analysis of the deposited data

How the results depend on the processing

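Of the 6 member differences that passed, 2 kept their call in all alternatives (Acot3 in controls and Acot12 in LG2KO, both for refeeding), 4 missed in at least 1, and none changed sign. Of the 48 that did not pass, 1 passed in an alternative: Acot1 in fasted livers with array weights, at -1.06 (adjusted p = 0.0212), which gave 1 member instead of 0. For refeeding in controls the count was 2 instead of 3 without an intensity trend, with robust moderation and with probe sets averaged per gene. It was also 2 with arrays centred on their medians, with only the groups compared and without the arrays that stand apart. For refeeding in LG2KO the count was 1 instead of 2 without an intensity trend, with robust moderation and with all probe sets tested. It was also 1 with arrays centred on their medians, with only the groups compared and with the replicate block. For genotype averaged over feeding it was 0 instead of 1 without the trend, with robust moderation and without the arrays that stand apart. Leaving out 1 array gave 2 to 3 members for refeeding in controls, 1 to 2 in LG2KO, 0 to 1 for averaged genotype, and 0 in the other comparisons. Fits of only the groups compared do not apply to the averaged and interaction comparisons. The cause of these changes was not tested.

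The number of all genes that passed moved more. It was 69 for LG2KO against control in refed livers, 15 with only the groups compared, 34 with all probe sets tested, 41 without the trend, 43 with robust moderation, 180 with array weights and 8 to 47 with 1 array left out. In fasted livers it was 72, 44 with only the groups compared, 203 with array weights and 30 to 97 with 1 array left out. For refeeding it was 1176 in controls and 1283 in LG2KO, 2454 and 3578 with array weights, 2202 and 3187 without the arrays that stand apart, 695 in controls with only the groups compared, and 706 to 1467 and 697 to 1803 with 1 array left out. For averaged genotype it was 185, 122 without the trend, 443 with array weights and 88 to 207 with 1 array left out, and for the interaction it was 1, 20 with array weights and 6 with the replicate block.

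Replicate numbers of the titles were not shown to pair the arrays. Same-numbered arrays had correlations of deviations from group means between -0.42 and 0.71, and 5 of 18 pairs were above 0.1. Arrays with different numbers were not compared in this way, so the check cannot exclude a pairing. With the replicate block the members called were 3 for refeeding in controls, 1 in LG2KO, 1 for averaged genotype and 0 otherwise.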
